A study of Mus musculus with 6 samples.

Results

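Glutathione, the tripeptide of glutamate, cysteine and glycine, is made, spent and rebuilt in a cycle, and 10 genes of that cycle were followed in cultured skin fibroblasts with and without a constitutively active Nrf2. They were chosen by name from the steps they serve: Slc7a11 and Slc3a2 for cystine uptake, Gclc, Gclm and Gss for synthesis, Gsr for the recycling of oxidized glutathione, and Chac1, Ggt5, Ggt7 and Oplah for breakdown and the return of its glutamate. The deposited tables hold 43629 genes, and all 10 were among them and among the 15341 genes with enough reads to be tested. The RNA came from primary dermal fibroblasts of newborn mice, kept in culture for 6 days (passage 1). The strain was a mix of C57Bl/6 and FVB/N. The ctrl group carried the Cre recombinase transgene Col1a2Cre alone, and the caNrf2 group carried Col1a2Cre and the active Nrf2 mutant caNrf2, with 3 libraries each. Both groups thus carry Cre, expressed in fibroblasts, and the labels do not give the share of cells in which the mutant was active. The series' design text gives 3 mice per group. Library titles carry only a group and a number, so that p-values measure the spread between these libraries, which were taken to be separate mice.

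NRF2, the protein of Nfe2l2, is a transcription factor that binds antioxidant response elements in the DNA near genes of glutathione metabolism and detoxification. Cells take up cystine, the oxidized dimer of cysteine, in exchange for glutamate through system xc-, a pair of a transporter chain (the Slc7a11 protein, xCT) and a carrier chain (the Slc3a2 protein, CD98 heavy chain) that it shares with other amino acid transporters. Glutamate-cysteine ligase, made of the catalytic subunit of Gclc and the modifier subunit of Gclm, performs the step that usually limits synthesis, and glutathione synthetase (Gss) adds glycine. Glutathione reductase (Gsr) restores the reduced form with NADPH. Inside the cell Chac1 cleaves glutathione, while enzymes of the gamma-glutamyltransferase family, to which Ggt5 and Ggt7 belong, act at the cell surface, and Oplah, 5-oxoprolinase, turns the 5-oxoproline formed in breakdown back into glutamate. Slc7a11, Slc3a2 and Chac1 are also known targets of ATF4, the transcription factor of the amino acid and unfolded protein stress responses, which binds the C/EBP-ATF response element.

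Promoters were searched for the elements of both factors, NRF2 and ATF4. RefSeq promoters (GRCm38.p6, 250 bases before to 50 after the start site) were at hand for 6 of the 10 genes, Slc7a11, Slc3a2, Gclm, Gss, Chac1 and Ggt7. The motifs searched on both strands were TGACNNNGC, the core of the antioxidant response element, and TGATGNAA, the C/EBP-ATF response element. A match was present in 3 of the 6 promoters. The stretches below run from 250 to 21 bases before the start site, 5′ to 3′ on the strand of the gene, with the matched bases in capitals. They lie at chr3:50443634-50443863 (minus strand, Slc7a11), chr2:119350992-119351221 (plus strand, Chac1) and chr3:122245307-122245536 (plus strand, Gclm).
Slc7a11: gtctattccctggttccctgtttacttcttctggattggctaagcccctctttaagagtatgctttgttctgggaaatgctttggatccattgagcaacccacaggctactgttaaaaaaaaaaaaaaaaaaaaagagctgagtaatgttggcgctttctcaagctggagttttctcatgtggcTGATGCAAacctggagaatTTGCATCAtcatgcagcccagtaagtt
Chac1: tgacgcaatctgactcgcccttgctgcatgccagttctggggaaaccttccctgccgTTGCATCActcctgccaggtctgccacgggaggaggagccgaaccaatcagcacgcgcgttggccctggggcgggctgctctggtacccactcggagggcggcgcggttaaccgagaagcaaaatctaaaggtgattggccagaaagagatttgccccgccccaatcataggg
Gclm: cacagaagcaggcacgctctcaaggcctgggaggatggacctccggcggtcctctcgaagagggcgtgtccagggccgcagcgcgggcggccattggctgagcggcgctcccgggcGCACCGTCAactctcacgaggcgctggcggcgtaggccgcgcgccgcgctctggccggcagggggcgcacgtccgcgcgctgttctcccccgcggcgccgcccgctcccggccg

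The Slc7a11 promoter held 2 matches to the C/EBP-ATF response element in opposite orientations, at 66 to 59 and at 47 to 40 bases before the start site. The Chac1 promoter held 1, on the strand opposite to the gene, at 193 to 186 bases before its start. All 3 matches read TGATGCAA on their own strand. Of all 32851 promoter windows of this length, 3.97% held at least 1 match and 0.07% held 2 or more. The Gclm promoter held the core of the antioxidant response element once, as TGACGGTGC on the strand opposite to the gene, 134 to 126 bases before the start. This motif is common in such windows, with a match in 12.4% of them. None of the matches overlapped another. Neither motif was found in the windows of Slc3a2, Gss and Ggt7. The core of the antioxidant response element was also absent from the windows of Slc7a11 and Chac1. Gclc, Gsr, Ggt5 and Oplah had no window to search, and bases outside the windows were not searched. A match describes letters in a window, and binding was not measured.

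**Figure D1:**
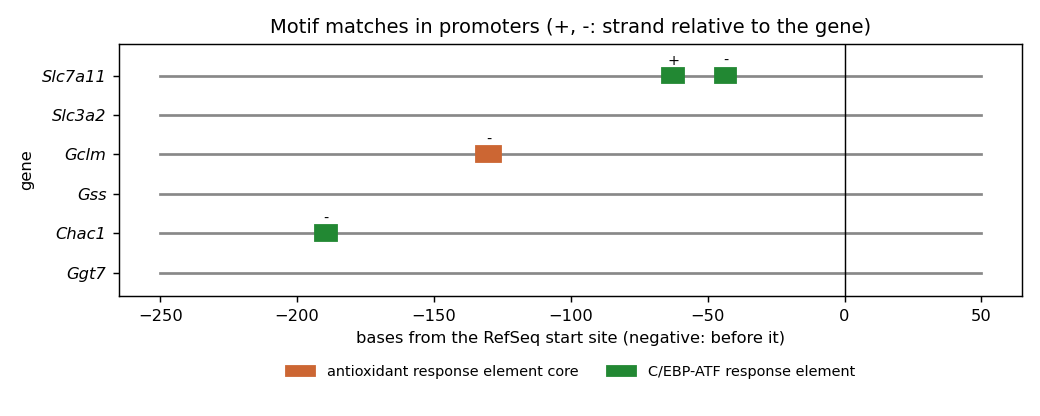
Motif matches in the RefSeq promoter windows of 6 glutathione cycle genes. The horizontal axis gives bases from the start site, each grey line is 1 window, and boxes mark matches with their strand; Slc7a11 has 2 matches to the C/EBP-ATF response element, Chac1 has 1, and Gclm has 1 match to the antioxidant response element core.

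Nfe2l2, the gene that encodes NRF2, was read first as a check of the labels. It stood at 113, 103 and 112 CPM (library-scaled counts, by the TMM method) in ctrl replicates 1 to 3 and at 352, 430 and 358 CPM in caNrf2 replicates 1 to 3. Every caNrf2 library was above every ctrl library, as the labels imply, and the tables do not separate reads of the transgene from those of the endogenous gene. Library totals ran from 30168400 to 45164208 expected counts. The 10 genes had between 231 (Ggt5) and 21473 (Gclm) expected counts per library, so that none was near the detection limit. Fibroblast markers were abundant in all libraries, with Col1a1 at 11158 CPM or more. Markers of other cells were also present, and those of macrophages and leukocytes were higher in caNrf2. All 10 of these markers were called higher (median log2 fold change 1.84). Their summed level lay between 18.8 and 55.5 CPM in ctrl and between 133 and 161 CPM in caNrf2 libraries. No marker was at 0. Among them, Cd52 had few reads and passed the filter on low counts only through the caNrf2 group, where it is high. With a minimum count of 50, 9 were called higher, and with 1 library left out 7 to 10. Skeletal muscle markers were higher in 6 of 7 tested, with sums of 55.9 to 63.7 and 97.7 to 111 CPM. Over all tested genes, 12.5% were called higher and 9.03% lower (edgeR, adjusted p under 0.05), the shares for every marker list here. Keratinocyte markers were higher in 1 of 6 (173 to 287 and 245 to 403 CPM), melanocyte and Schwann cell markers in 1 of 6 (14.8 to 24.6 and 26.2 to 31.7 CPM) and endothelial markers in 1 of 5 (7.84 to 10.6 and 9.39 to 11.3 CPM), and these 3 single calls were lost without 1 or more of the libraries. Of 7 fibroblast markers 2 were higher and 3, all collagens, lower. Their sums were 33608 to 49923 CPM in ctrl and 23907 to 29313 CPM in caNrf2, without overlap. The lower call of Col1a1 was lost without any single library but ctrl replicate 1. That of Pdgfra, a higher marker, was lost without ctrl replicate 2 or caNrf2 replicate 3. In bulk RNA, a change in the number of cells of a type and a change in RNA per cell cannot be told apart.

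The cycle was not changed as a block. RNA of the cystine-specific chain, of the 3 synthesis genes and of glutathione reductase rose 4.78- to 13.7-fold, Slc3a2, Ggt7 and Oplah were not called, Ggt5 rose less than 2-fold, and Chac1 fell. Of the 10 genes, 6 were called higher and 1 lower (edgeR's quasi-likelihood test, Benjamini-Hochberg adjusted p under 0.05 over all genes tested), where 12.5% of all tested genes were called higher and 9.03% lower. The groups did not overlap in 7 of the 10, against 42.1% of all tested genes, with 6 higher (22% of all) and 1 lower (20.1% of all). A call with at least a 4-fold rise was made for 5 of the 10, where 2.14% of all tested genes had one. The median log2 fold change was 1.55 over the 10 genes and -0.0031 over all 15341. The list was assembled with earlier results of these data known, so its count carries no weight of its own and each gene is given below.

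**Figure D2:**
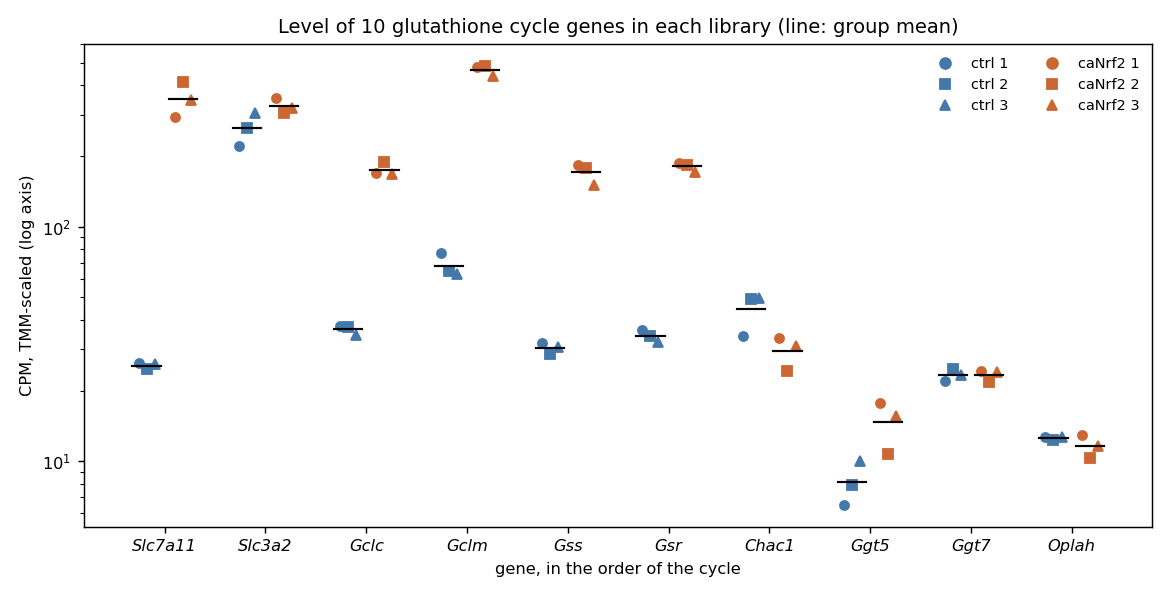
Level of each of the 10 genes in every library, in TMM-scaled CPM on a log axis, ordered along the cycle; points are libraries, with the shape giving the replicate number, and lines are group means. Slc7a11, Gclc, Gclm, Gss and Gsr separate widely, with Slc7a11 at 24.7 to 26.2 CPM in ctrl and 293 to 413 CPM in caNrf2, while Ggt7 and Oplah overlap.

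Slc7a11 (ENSMUSG00000027737, chromosome 3, 49892526 to 50443614, minus strand, GRCm38), the cystine-specific chain, changed most. It stood at 26.2, 24.7 and 25.9 CPM in ctrl replicates 1 to 3 and at 293, 413 and 348 CPM in caNrf2 replicates 1 to 3. The ctrl libraries, with a coefficient of variation of 3.1%, lay far below all caNrf2 libraries, with one of 17.1%. The fold change was 13.7, with a log2 fold change of 3.78 and an SE of 0.14 (edgeR adjusted p = 3.23e-07). At least 97.9% of its reads in every library were assigned to the 12-exon transcript ENSMUST00000029297. The same transcript therefore carried the gene in both groups, at 4.91 to 5.19 TPM (a level per transcript length and library) in the ctrl group and 52.9 to 81.4 TPM in the caNrf2 group. Slc7a11 is also expressed by macrophages, whose markers moved with it, and their part in the result was not tested.

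Slc3a2 (ENSMUSG00000010095, chromosome 19, 8706882 to 8723369, minus strand), the chain that brings Slc7a11 to the membrane, was not called. Its level was 221, 262 and 306 CPM in ctrl and 353, 304 and 320 CPM in caNrf2, and ctrl replicate 3 was above caNrf2 replicate 2. The log2 fold change was 0.31 with a 95% interval from 0.02 to 0.59 (edgeR adjusted p = 0.115), which corresponds to 1.02- to 1.5-fold. Of its 2 transcripts the minor one, ENSMUST00000170157, held 5.74% to 5.99% of the gene's counts in ctrl and 7.15% to 8.01% in caNrf2, without overlap, and transcript usage of the gene was not called (edgeR diffSpliceDGE, unadjusted p = 0.337). 

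The ratio of the pair within libraries shifted towards Slc7a11. Slc7a11 reads made up 0.118, 0.0941 and 0.0845 of the Slc3a2 reads in ctrl replicates 1 to 3 and 0.831, 1.36 and 1.09 in caNrf2 replicates 1 to 3. The log2 ratio was 3.45 higher in caNrf2, a 10.9-fold shift, and the groups did not overlap. A ratio within a library does not depend on how libraries are scaled. With 3 libraries a group the exact permutation test cannot go below p = 0.1, the value reached for each of the 6 gene pairs examined (exact permutation p = 0.1, both tails, adjusted over the 6 pairs 0.1). Per length, Slc7a11 was still the lesser chain, at 0.0239 to 0.0327 of the TPM of Slc3a2 in ctrl and 0.23 to 0.379 in caNrf2.

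Gclc (ENSMUSG00000032350, chromosome 9, 77754535 to 77794485, plus strand), the catalytic subunit of glutamate-cysteine ligase, rose 4.78-fold. It stood at 37.6, 37.4 and 34.5 CPM in ctrl and 169, 188 and 167 CPM in caNrf2. These are narrow groups, with coefficients of variation of 4.73% and 6.53%, and they lie far apart (log2 fold change 2.26, SE 0.08, edgeR adjusted p = 3.89e-07). The tables give it a single transcript.

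Gclm (ENSMUSG00000028124, chromosome 3, 122245557 to 122269984, plus strand), the modifier subunit that lowers the enzyme's need for glutamate and its inhibition by glutathione, rose as well. Its level was 77.3, 64.7 and 62.6 CPM in ctrl and 477, 484 and 439 CPM in caNrf2, with no overlap. The fold change was 6.84 (log2 fold change 2.77, SE 0.11, edgeR adjusted p = 5.35e-07). Within libraries, Gclm had 2.06, 1.73 and 1.81 reads per read of Gclc in ctrl replicates 1 to 3, and 2.83, 2.58 and 2.62 in caNrf2. The log2 ratio of Gclm to Gclc was 0.52 higher in caNrf2, by counts, and 0.69 higher by TPM.

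Gclm reads were spread over transcripts of very different length, which matters for its level per length. The 4841-base transcript ENSMUST00000029769 held 56.8% to 65.4% of the counts in ctrl and 53.9% to 55.8% in caNrf2. The 1002-base coding transcript ENSMUST00000178826 held 22.5% to 25.5% and 27% to 28.3%. The usage test did not call the gene (edgeR diffSpliceDGE, unadjusted p = 0.627). Summed over transcripts, Gclm reached 92.2 to 94.7 TPM in ctrl, above Gclc at 19.2 to 20.8 TPM. The long transcript alone spanned 13.8 to 19.5 TPM in the ctrl group and 90.2 to 104 TPM in the caNrf2 group, close to Gclc at 84.5 to 103 TPM in the latter group. The order of the 2 subunits per length thus rests on reads that RSEM, the program that assigned the reads, gave to short transcripts. Exons of Gclm also overlap Gm6061 on the same strand and Gm17494 on the opposite strand, so that reads in the shared stretches cannot be assigned with certainty.

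Gss (ENSMUSG00000027610, chromosome 2, 155563181 to 155592810, minus strand), glutathione synthetase, stood at 32, 28.8 and 30.6 CPM in ctrl and 183, 179 and 150 CPM in caNrf2. The groups were far apart and the gene rose 5.60-fold (log2 fold change 2.49, SE 0.10, edgeR adjusted p = 6.18e-07). Relative to Gclc, Gss had 0.851, 0.768 and 0.887 reads per read in ctrl and 1.09, 0.952 and 0.897 in caNrf2, a log2 shift of 0.23, so that the ratio of these enzymes, which act in sequence, changed 1.17-fold while each rose several-fold. The 13-exon transcript ENSMUST00000079691 carried 47.9% to 63.3% of Gss counts in ctrl and 65.9% to 72.8% in caNrf2, and ENSMUST00000130881, with 12 exons, most of the rest, but usage was not called (edgeR diffSpliceDGE, unadjusted p = 0.350). Exons of Gss overlap those of Acss2, Gssos1 and Gssos2 on the opposite strand, and as no source used here says whether the counting used strand, shared reads cannot be told apart.

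Gsr (ENSMUSG00000031584, chromosome 8, 33652523 to 33698163, plus strand), which returns oxidized glutathione to its reduced form, also rose. Levels were 36.3, 34.3 and 32.3 CPM in ctrl and 188, 183 and 170 CPM in caNrf2, again without overlap. The fold change was 5.26 (log2 fold change 2.40, SE 0.08, edgeR adjusted p = 2.73e-07). Gsr kept close to 1 read per read of Gclc, at 0.915 to 0.965 in ctrl and 0.977 to 1.11 in caNrf2. Over the 6 libraries, the log2 CPM values of Gclc, Gclm, Gss and Gsr correlated at 0.996 to 0.999 (Pearson's r for the 6 pairs), points that share the step between the groups and the libraries themselves.

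**Figure D3:**
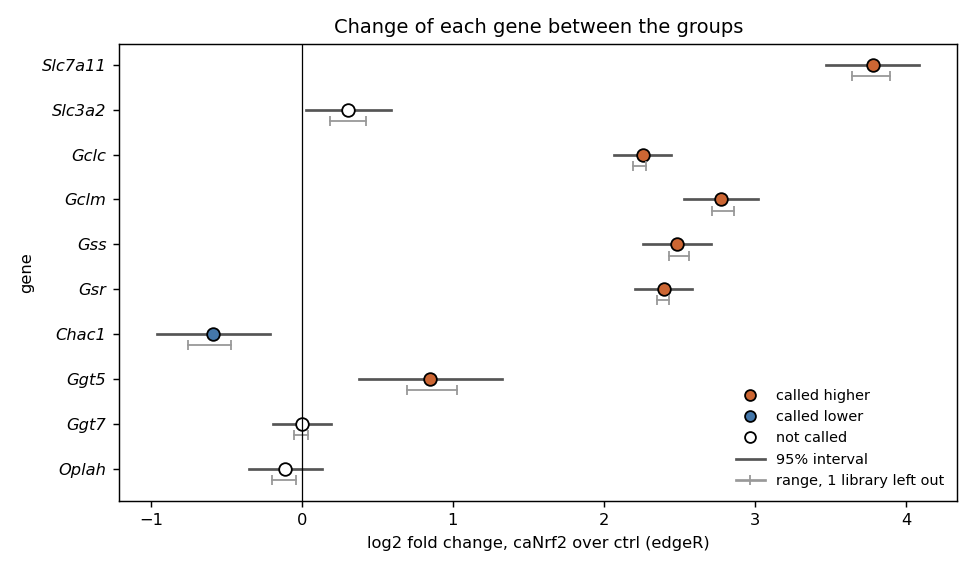
Log2 fold change of caNrf2 over ctrl for each gene from edgeR (points) with its 95% interval (dark bars) and, below each, the range when 1 library at a time was left out (grey). Slc7a11 at 3.78 stands apart from the group formed by Gclc, Gclm, Gss and Gsr at 2.26 to 2.77, Chac1 lies below 0 at -0.59, and the intervals of Ggt7 and Oplah include 0.

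Chac1 (ENSMUSG00000027313, chromosome 2, 119351229 to 119354381, plus strand), which degrades glutathione in the cytosol, was the one gene of the 10 that fell. It stood at 34.3, 48.9 and 49.8 CPM in ctrl and 33.4, 24.1 and 31.1 CPM in caNrf2. The groups did not overlap, but ctrl replicate 1 and caNrf2 replicate 1 were nearly equal. The log2 fold change was -0.59 with an SE of 0.16, a level of 0.666-fold (edgeR adjusted p = 0.0342). The call depended on single libraries. It ended when ctrl replicate 2 was dropped (log2 fold change then -0.51, adjusted p = 0.0989), as it did for ctrl replicate 3 (-0.50, 0.109), caNrf2 replicate 2 (-0.47, 0.093) or caNrf2 replicate 3 (-0.63, 0.0656), and in edgeR with the replicate number as a block (-0.58, 0.0619). All 16 alternatives kept the direction, with an adjusted p between 0.00344 and 0.109.

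Chac1 and Gclc moved apart. In ctrl libraries Chac1 had 0.911, 1.31 and 1.44 reads per read of Gclc, and in caNrf2 libraries 0.198, 0.129 and 0.186. The log2 ratio of this breakdown gene to the synthesis gene was 2.83 lower in caNrf2, and all caNrf2 libraries were below all ctrl libraries. The rise of Gclc (log2 fold change 2.26) was the larger part of that shift, next to -0.59 for Chac1.

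Ggt5 (ENSMUSG00000006344, chromosome 10, 75589340 to 75617200, plus strand), a surface enzyme that acts on glutathione conjugates such as leukotriene C4, had the fewest reads of the 10 in ctrl. It stood at 6.51, 7.88 and 10 CPM in ctrl and 17.6, 10.7 and 15.6 CPM in caNrf2. The groups did not overlap, with caNrf2 replicate 2 only just above ctrl replicate 3. It rose 1.8-fold (log2 fold change 0.85, SE 0.21, edgeR adjusted p = 0.0201). It was not called once ctrl replicate 1 was dropped (log2 fold change then 0.70, adjusted p = 0.0767), nor on dropping ctrl replicate 2 (0.83, 0.0571), caNrf2 replicate 1 (0.70, 0.066) or caNrf2 replicate 3 (0.79, 0.0615). The 16 alternatives gave an adjusted p between 0.000568 and 0.0767. Summed macrophage and leukocyte markers were 18.8, 55.5 and 53.1 CPM in ctrl replicates 1 to 3 and 150, 161 and 133 CPM in caNrf2 replicates 1 to 3. Their part in the change of Ggt5 was not tested.

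Ggt7 (ENSMUSG00000027603, chromosome 2, 155490379 to 155518237, minus strand), a family member whose enzymatic activity is not well established, stood at 22, 24.6 and 23.4 CPM in ctrl and 24.3, 21.7 and 24 CPM in caNrf2, so that the groups overlapped. Its log2 fold change was -0.0011 with a 95% interval from -0.19 to 0.19 (edgeR adjusted p = 0.995), or 0.875- to 1.14-fold. Ggt7 had 3.38, 3.13 and 2.33 reads per read of Ggt5 in ctrl and 1.38, 2.03 and 1.54 in caNrf2. That ratio was 0.84 lower on the log2 scale in caNrf2, without overlap.

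Oplah (ENSMUSG00000022562, chromosome 15, 76296597 to 76328015, minus strand), the last step of the return of glutamate, was not called either. Levels were 12.7, 12.3 and 12.7 CPM in ctrl and 13, 10.4 and 11.6 CPM in caNrf2, and caNrf2 replicate 1 was above all ctrl libraries. The log2 fold change was -0.11 with a 95% interval from -0.35 to 0.13 (edgeR adjusted p = 0.496), or 0.784- to 1.10-fold. Exons of Oplah overlap Exosc4 and Smpd5, and exons of Ggt7 overlap Acss2, all on the opposite strand.

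**Figure D4:**
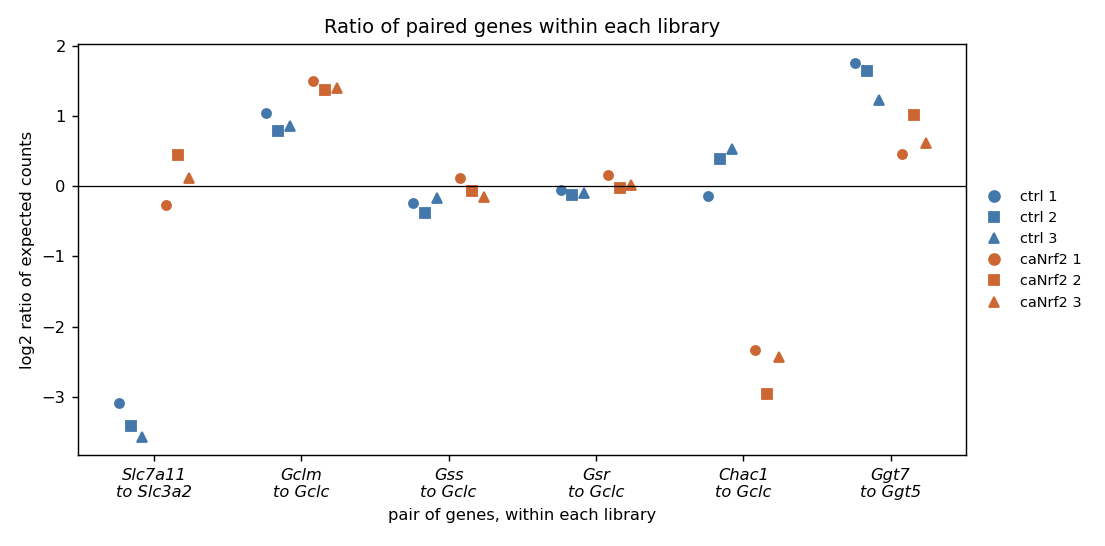
Log2 ratio of the expected counts of paired genes within each library, with 1 column per pair, colour for the group and shape for the replicate number; 0 means equal counts. The ratio of Slc7a11 to Slc3a2 is 3.45 higher and that of Chac1 to Gclc 2.83 lower in caNrf2, while Gss and Gsr stay close to Gclc in every library.

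Per length, the order of the genes differed between the groups. In ctrl, Slc3a2 was highest at 195 ± 32.4 TPM (SD, n = 3 here and below), followed by Gclm at 93.5 ± 1.26, Chac1 at 53.4 ± 10.7, Gss at 31.9 ± 1.62, Gsr at 27.2 ± 0.55, Ggt7 at 23.2 ± 1.72, Gclc at 20.3 ± 0.901, Oplah at 7.80 ± 0.369, Ggt5 at 6.30 ± 1.89 and Slc7a11 at 5.31 ± 0.179 TPM. Ggt5 overlapped both Oplah and Slc7a11, which did not overlap each other. In caNrf2, Gclm was highest at 692 ± 31.3 TPM, followed by Slc3a2 at 231 ± 6.86, Gss at 169 ± 14.9, Gsr at 140 ± 8.75, Gclc at 93.1 ± 9.45, Slc7a11 at 70 ± 15.2, Chac1 at 34 ± 4.53, Ggt7 at 22.1 ± 1.68, Ggt5 at 10.2 ± 2.13 and Oplah at 6.71 ± 0.567 TPM. Gclc and Slc7a11 overlapped there. Slc7a11 moved from the last place to the sixth, and Chac1 from the third to the seventh.

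Gene totals hid no called change in the transcripts used. Of the 10 genes, 2 (Gclc and Chac1) have a single transcript in the tables and 8 could be tested. None of the 8 was called by edgeR's diffSpliceDGE, none had an unadjusted p under 0.05 (the lowest was 0.337), and no other tool was run. In all, 0.801% of the 7992 genes tested for usage were called.

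Among genes whose levels followed those of the members, the 3 most alike to Gclc across the 6 libraries were Bag3, a co-chaperone (Pearson's r 1.00 to 2 decimals, 1.39-fold higher, edgeR adjusted p = 0.00116), Ppp2ca, a phosphatase catalytic subunit (1.16-fold, adjusted p = 0.066) and Mfsd6 (15.2-fold, adjusted p = 1.60e-07). The 3 most alike to Slc7a11 were Layn, a hyaluronan receptor (2.26-fold), Slc43a2, an amino acid transporter (7.24-fold) and Scmh1 (1.36-fold). These values describe 6 libraries that share the step between groups. Of 10822 genes compared, 176 exceeded an r of 0.99 with Gclc and 146 with Slc7a11.

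Other genes of glutathione turnover were mostly not called. In a list of 12 further genes of the cycle and its dipeptidases, 9 were tested, 3 were higher and none lower in edgeR. Of all tested genes 12.5% were called higher and 9.03% lower. In the list 1 gene, Anpep, had an unadjusted p under 0.05 in the lower direction. It was called lower with unfiltered counts, DESeq2 or the replicate block. The median log2 fold change of the list was -0.05. Ggt1, the main gamma-glutamyltransferase, rose from 0.0913 ± 0.043 to 0.493 ± 0.108 CPM (log2 fold change 2.40, SE 0.42, edgeR adjusted p = 0.00449). It had few reads, passed the filter on low counts only through the caNrf2 group, where it is high, and was removed by the stricter filter (minimum count 50), which left 2 higher genes. Ggct, which forms 5-oxoproline, rose 1.62-fold (2.21 ± 0.232 to 3.59 ± 0.436 CPM, adjusted p = 0.0219) and Cndp2, a dipeptidase, 1.27-fold (adjusted p = 0.0264). Both calls were fragile. That of Ggct ended when ctrl replicate 2 (log2 fold change then 0.61), ctrl replicate 3 (0.71), caNrf2 replicate 1 (0.64) or caNrf2 replicate 3 (0.65) was dropped. That of Cndp2 ended on dropping ctrl replicate 1 (0.25), caNrf2 replicate 1 (0.35), caNrf2 replicate 2 (0.37) or caNrf2 replicate 3 (0.31). Dropping caNrf2 replicate 1 or 3 left Ggt1 as the 1 called gene. The most abundant, Anpep, a surface aminopeptidase, had a mean of 123 ± 34.4 CPM in the ctrl group and of 84.6 ± 12.7 CPM in the caNrf2 group and was not called (adjusted p = 0.0735).

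Most genes of cysteine supply and use outside the 10 were not called. Of 10 tested genes of cysteine supply and use, 2 were higher and 2 lower, with a median log2 fold change of -0.11. Among all tested genes 12.5% were called higher and 9.03% lower, the shares for this list and those that follow. Cth, which makes cysteine from cystathionine in the transsulfuration pathway, fell from 12.7 ± 2.29 to 7.01 ± 1.12 CPM (0.552-fold, edgeR adjusted p = 0.00725), and Ctns, the exporter of cystine from lysosomes, fell to 0.665-fold (adjusted p = 0.00356). Slc1a4, a carrier of alanine, serine and cysteine, rose 1.86-fold (107 ± 8.57 to 199 ± 4.22 CPM, adjusted p = 0.000129). Ahcy, which hydrolyses S-adenosylhomocysteine, rose 1.22-fold (adjusted p = 0.0279). Its call ended when any library other than caNrf2 replicate 3 was dropped (log2 fold change 0.27, 0.32 and 0.28 on dropping ctrl replicates 1 to 3, 0.24 and 0.29 on dropping caNrf2 replicates 1 and 2), and the list then had 1 higher gene.

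The supply of the other amino acids of glutathione was divided. Of 13 tested genes for glutamate and glycine, 2 were higher and 5 lower, with a median log2 fold change of -0.26. Glul, glutamine synthetase, rose 2.20-fold (42.8 ± 3.24 to 94.5 ± 5.18 CPM, edgeR adjusted p = 2.50e-05) and Slc6a9, a glycine transporter, 2.55-fold (48.8 ± 7.41 to 124 ± 10.9 CPM, adjusted p = 9.46e-05). Slc1a5, a glutamine transporter, fell to 0.612-fold (114 ± 3.82 to 69.7 ± 3.31 CPM, adjusted p = 0.000223), and Shmt2, which makes glycine from serine, to 0.75-fold (adjusted p = 0.015). Dropping ctrl replicate 3 (log2 fold change then -0.38) or caNrf2 replicate 2 (-0.37) ended the call of Shmt2. The number of lower genes was 3 without ctrl replicate 2 and 2 without ctrl replicate 3 or caNrf2 replicate 2. The most abundant, the neutral amino acid transporter gene Slc38a2, had a mean of 506 ± 14.5 CPM in the ctrl group and of 423 ± 23.6 CPM in the caNrf2 group (adjusted p = 0.0537). It was not called in the main fit, while 6 of the 16 alternatives, among them DESeq2, called it lower.

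Slc3a2 serves several light chains. None of the 4 tested partners other than Slc7a11 was called higher by edgeR or DESeq2, 0 had an unadjusted p under 0.05 in that direction, and 1, Slc7a5, a carrier of large neutral amino acids, fell from 302 ± 43 to 185 ± 17.6 CPM (0.613-fold, SE of the log2 fold change 0.12, edgeR adjusted p = 0.00425). Upper-quartile scaling called 2 lower. Genes of glutathione export and mitochondrial import had 3 higher and 1 lower of 8 tested (median log2 fold change 0.20). The 3 were efflux pumps that carry glutathione or its conjugates, Abcc4 (19.4 ± 0.985 to 201 ± 13 CPM, edgeR adjusted p = 8.51e-08), Abcc1 (129 ± 16.7 to 529 ± 86.9 CPM, adjusted p = 2.21e-05) and Abcc3 (3.47 ± 0.684 to 7.21 ± 0.431 CPM, adjusted p = 0.0025). Slc25a40, one of a pair of mitochondrial glutathione carriers, fell to 0.74-fold (adjusted p = 0.0115).

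Of the genes named above as ATF4 targets, Chac1 was called lower, Slc7a11 higher, and Slc3a2 was not called. Further genes of the ATF4 branch were read beside them, and a part of ATF4 in these changes was not tested. Of 15 tested genes of that branch, none of which is a member, 8 were lower and none higher in edgeR. Over all tested genes, 9.03% were called lower and 12.5% higher. For the branch, 0 were higher at an unadjusted p under 0.05 and by DESeq2, and 1 with the replicate block. Its number of lower genes was 11 with DESeq2. It was 6 without ctrl replicate 2, ctrl replicate 3 or caNrf2 replicate 2. The median log2 fold change was -0.37. Ddit3, the transcription factor CHOP that acts upstream of Chac1, stood at 66.3, 76.5 and 95.9 CPM in the ctrl group and 40.2, 26.8 and 40.2 CPM in the caNrf2 group (log2 fold change -1.16, SE 0.18, edgeR adjusted p = 0.00234). The groups were apart, with caNrf2 replicate 2 lowest, as it was for Chac1. That library was also lowest for Atf4, Asns and Vldlr and, outside this list, for Anpep. A part of Ddit3 in the change of Chac1 was not tested. Vldlr, the very low density lipoprotein receptor, fell to 0.491-fold (adjusted p = 0.000246) and Asns, asparagine synthetase, to 0.659-fold (adjusted p = 0.00502). Atf4 itself, named here after its values were seen, had a mean of 391 ± 42 CPM in the ctrl group and of 302 ± 34 CPM in the caNrf2 group (log2 fold change -0.37, SE 0.12). It was at the threshold (adjusted p = 0.049995) and lost its call without any single library but ctrl replicate 1 (log2 fold change -0.29 to -0.43) and with the replicate block. Atf5, the most abundant of the list, was not called (adjusted p = 0.0564), while 5 of the 16 alternatives, among them DESeq2, called it lower.

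NRF2 and its known regulators were higher together, all 6 of 6 tested (median log2 fold change 0.80), where 12.5% of all tested genes were called higher. Among them were Keap1, the adaptor that marks NRF2 for degradation (46.9 ± 1.63 to 70.2 ± 4.53 CPM, edgeR adjusted p = 0.000843), and Mafg, a small MAF protein that binds DNA with NRF2 (103 ± 17.4 to 215 ± 7.58 CPM, adjusted p = 0.000445). Nfe2l2 itself, which is part of the list and of its count, rose 3.48-fold. The caNrf2 group carries a mutant form of this gene, and transgene reads are not separated from endogenous ones.

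**Figure D5:**
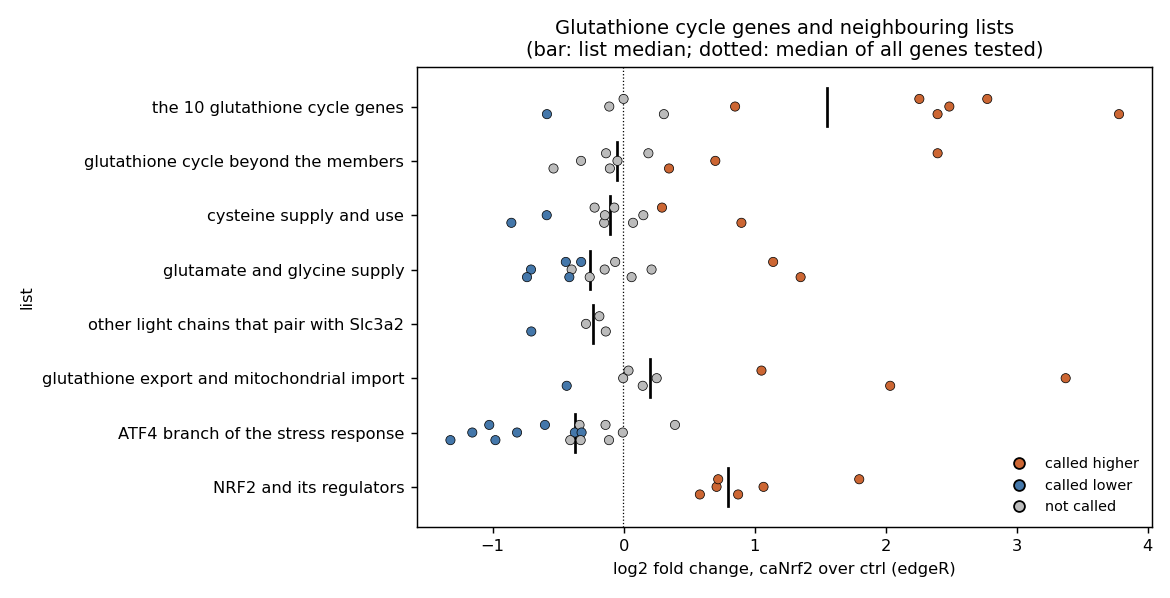
Log2 fold change of caNrf2 over ctrl (edgeR) for the 10 genes and for the tested genes of 7 neighbouring lists; each point is a gene, coloured by its call, bars are list medians and the dotted line is the median of all genes tested. The 10 genes have a median of 1.55, the ATF4 branch lies mostly below 0 with a median of -0.37, and all 6 genes of the NRF2 list are above 0.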

How the data were processed

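RNA-seq of 6 libraries was analysed, 3 ctrl and 3 caNrf2. Per the submitters' processing notes, CASAVA 1.8, RSEM 1.2.21 and GRCm38 were used; the strand setting and annotation are not stated there. Per the file headers, the authors deposited expected counts and TPM for each of 104129 transcripts, which belong to 43629 genes. For each gene ID, the expected counts of its transcripts were added up and rounded to whole numbers; TPM was summed and used only for levels per length.

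Genes passed edgeR 4.0.16 (R 4.3.3) filterByExpr (minimum count 10, minimum total 15), were scaled by TMM and tested over all 6 libraries with the two-sided quasi-likelihood test, Benjamini-Hochberg adjusted over 15341 genes at a threshold of 0.05. A gene past the threshold is called. Ratios within libraries were compared by exact permutation, transcript usage by diffSpliceDGE. Scripts were tested on simulated data. The alternatives were other scalings, filters, DESeq2 1.42.0, limma 3.58.1 (voom), unrounded and posterior mean counts, a replicate block, and leaving out each library. Counts and named genes of the neighbouring lists were put through these after their values were seen.

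The 10 genes and all lists were chosen with earlier results of these data known. Named from each list were the most abundant gene and up to 3 called in each direction with the smallest adjusted p, apart from 1 gene that is not reported here; the 3 genes most alike to Gclc and to Slc7a11 were taken among genes with a mean of at least 5 CPM. Promoters come from RefSeq (GRCm38.p6), overlapping exons from GENCODE. Library totals were 30168400 to 45164208 expected counts. Replicates of a group differed by more than counting noise (chi-square per degree of freedom 19.7 to 52.2), so the precision rests on the spread between 3 libraries a group.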

Additional observations from a re-analysis of the deposited data

How the results depend on the processing

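Slc7a11, Gclc, Gclm, Gss and Gsr were called higher under all 16 alternatives, and in those fits Slc7a11 kept the highest log2 fold change, Gclm stayed above Gclc and Chac1 stayed lowest. Slc3a2 and Oplah were not called under any of them. Without 1 library at a time, log2 fold changes ranged from -0.75 to -0.47 for Chac1, from 0.70 to 1.03 for Ggt5 and from -0.054 to 0.041 for Ggt7, which turned positive without ctrl replicate 2 (0.039) or caNrf2 replicate 2 (0.041) and was never called. The number of the 10 genes called higher was then 5 to 6, and the number called lower 0 to 1. No transcript usage was called in the 10 genes under any of its 7 alternatives.

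Same-numbered libraries deviated together with correlations of 0.214, 0.209 and 0.0953, and each ctrl library correlated best with the caNrf2 library of its number. From the other side, caNrf2 replicate 3 correlated best with ctrl replicate 2 (0.112). All remaining pairs were negative (-0.242 to -0.0118). The labels state no pairing, so the main fit did not use the numbers, and whether they pair the samples was not settled. With the replicate block, Chac1 had a log2 fold change of -0.58 (edgeR adjusted p = 0.0619) and 0 of the 10 genes were called lower, while no other call of the 10 changed.

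Over all genes, 1385 were called lower, against 823 without ctrl replicate 3 and 864 without caNrf2 replicate 2. Upper-quartile scaling called 1744 higher and 1750 lower, against 1917 and 1385. Transcript usage calls numbered 64, against 23 with a minimum count of 50 and 85 to 131 with a library left out. The cause of these shifts was not tested. Few reads limit Ggt1, while Ggt5, with 231 to 678 expected counts a library, varied between libraries by 21.9% in ctrl and 24.2% in caNrf2 (coefficient of variation). Only 3 libraries a group were available, so exact tests of ratios could not go below p = 0.1.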
